A study of Mus musculus with 2 samples.

Results

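Neurotrophins and their receptors were followed through 7 genes in neural tube tissue dissected from mouse embryos of 12.5 days. They are the ligand genes Bdnf, Ntf3 and Ntf5 and the receptor genes Ntrk2, Ntrk3, Ngfr and Sort1, among 55536 gene rows in all. The 7 were chosen by symbol, with earlier results of these data known. The tissue came from strain B6NCrl as 2 pools of both sexes, 120 embryos in replicate 1 and 88 embryos in replicate 2. No genotype, treatment or second stage was compared, and each library is a pool, so differences between single embryos are averaged within it. Each library began with 10 ng of total RNA, primed with oligo-dT, amplified with a low-input kit and cut by tagmentation, with ERCC spike-in RNAs added.

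Neurotrophins are secreted growth factors that keep developing neurons alive, guide their axons and shape their synapses. Bdnf and Ntf5 products bind the receptor tyrosine kinase TrkB, encoded by Ntrk2, and the Ntf3 product binds mainly TrkC, encoded by Ntrk3. Ngfr encodes the pan-neurotrophin receptor of the tumour necrosis factor receptor family, and Sort1 encodes sortilin, a sorting receptor that binds unprocessed neurotrophins together with it. Ntrk2 and Ntrk3 are also spliced into truncated receptors that keep the outer and transmembrane parts and lack the kinase.

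Levels are given in TPM, an abundance unit with a fixed sum per library, which divides a gene's reads by its effective length, so levels of different genes can be compared. A gene was counted as expressed at 1 TPM or more in both libraries. In this bulk tissue a lower level from fewer expressing cells cannot be told apart from less RNA per cell. The libraries held 33529531 and 35461403 estimated counts in replicates 1 and 2, and ERCC spike-ins took 2.99% and 2.89% of them. In a transcript of 1 kb effective length, 1 count equalled 0.0477 TPM in the first pool and 0.0462 TPM in the other. The 6 neural progenitor markers and the 6 spinal neuron markers were all expressed, led by Fabp7 and Hes5 and by Tubb3 and Ina. Markers of other tissues were present as well, and no gene of the 11 marker lists was at 0 in both libraries.

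The reading frames of Ntrk2 and Ntrk3 are shown first, since the split between kinase-bearing and truncated receptors is decided at single exon junctions. The Ntrk2 frames below share the 30 bases in lower case, which end in the exon before the split, and the capitals are the bases particular to each frame. In Ntrk2-204 and Ntrk2-205 the capitals run to the stop codon, and in the full-length Ntrk2-207 they are the first 60 bases of a frame that goes on. Bases were read from the GENCODE M21 transcripts, 5′ to 3′, on mouse build mm10.
Ntrk2-207: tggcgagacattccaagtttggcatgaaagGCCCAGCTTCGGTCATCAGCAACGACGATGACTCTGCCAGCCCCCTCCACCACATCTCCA
Ntrk2-204: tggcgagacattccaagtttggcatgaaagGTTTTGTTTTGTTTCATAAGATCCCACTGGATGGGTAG
Ntrk2-205: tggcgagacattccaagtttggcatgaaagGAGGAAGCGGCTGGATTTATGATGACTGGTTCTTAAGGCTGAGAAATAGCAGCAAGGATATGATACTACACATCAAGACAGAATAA

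The capitals of Ntrk2-207 lie at chr13:58985802-58985861, those of Ntrk2-204 at chr13:58932023-58932060 and those of Ntrk2-205 at chr13:58878339-58878424, all exonic on the plus strand. Ntrk2-202 ends with the same bases as Ntrk2-204, the ending of the truncated receptor known as TrkB.T1. The frame of Ntrk2-207 holds 821 codons, against 476 in Ntrk2-204 and 492 in Ntrk2-205. Both short frames stop before the kinase domain.

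The corresponding Ntrk3 junction, where the kinase-bearing Ntrk3-201 and the truncated Ntrk3-202 part, is written in the same way. The truncated end adds 251 coding bases from 2 exons of its own, and its frame stops at 612 codons, against 825 in Ntrk3-201.
Ntrk3-201: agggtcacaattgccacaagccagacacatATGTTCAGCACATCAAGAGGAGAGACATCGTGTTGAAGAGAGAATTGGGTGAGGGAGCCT
Ntrk3-202: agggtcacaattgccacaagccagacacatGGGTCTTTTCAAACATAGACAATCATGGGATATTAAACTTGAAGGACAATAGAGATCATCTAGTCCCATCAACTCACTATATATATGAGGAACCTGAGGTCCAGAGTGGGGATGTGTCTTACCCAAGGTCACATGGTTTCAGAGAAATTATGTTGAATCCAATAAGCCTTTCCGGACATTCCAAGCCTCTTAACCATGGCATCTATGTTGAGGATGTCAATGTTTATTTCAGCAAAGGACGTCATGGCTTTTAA

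The capitals of Ntrk3-201 lie at chr7:78260355-78260414 and those of Ntrk3-202 in 2 exons between 78302629 and 78304426 of the same chromosome, on the minus strand. A second choice concerns the kinase domain itself. Ntrk3-205 and Ntrk3-206 carry extra coding bases there, in capitals below between 30 shared bases on each side, while Ntrk3-201 joins the shared bases directly.
Ntrk3-205: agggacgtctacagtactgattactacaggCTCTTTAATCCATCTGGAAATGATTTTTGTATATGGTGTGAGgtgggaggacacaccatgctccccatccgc
Ntrk3-206: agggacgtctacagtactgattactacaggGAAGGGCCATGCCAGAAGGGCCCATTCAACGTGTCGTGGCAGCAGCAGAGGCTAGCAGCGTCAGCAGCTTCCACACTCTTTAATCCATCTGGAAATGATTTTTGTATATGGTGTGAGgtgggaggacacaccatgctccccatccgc

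The insert of Ntrk3-205 spans 42 bases at chr7:78204103-78204144 and adds 14 codons. Ntrk3-206 holds the same bases behind a further exon, 117 bases and 39 codons in all. Both are known as kinase insert forms of TrkC.

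The 7 genes spanned levels from below 1 TPM to near 100 TPM, and receptors stood above ligands. In order of mean level they were Ngfr, Ntrk2, Sort1, Ntrk3, Ntf3, Bdnf and Ntf5. Neighbours in that order all differed by more than the sum of their SDs, with no overlap between the libraries. The narrowest step was Ntrk3 over Ntf3, a gap of 2.49 TPM against summed SDs of 2.12 TPM. In replicate 1 incomplete and non-coding models gave 0.46 and 0.78 TPM of Ntrk3, from 3.17 and 10.3 counts. Without them Ntrk3 would lie below Ntf3 in that library. Of the 7 genes 6 were expressed, against 13414 of 22028 protein-coding genes (60.9%).

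**Figure D1:**
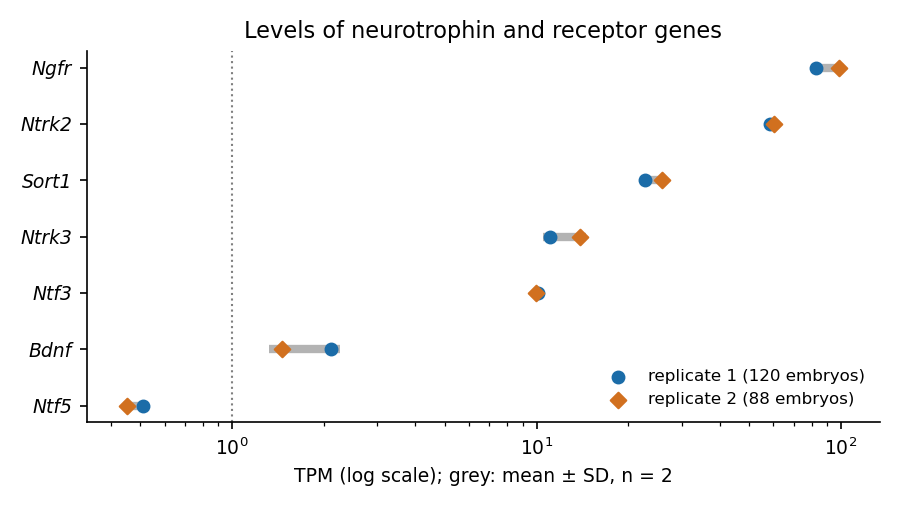
TPM of the 7 genes on a log axis, with 1 point per library and a grey bar for the mean ± SD (n = 2); the dotted line marks 1 TPM. Receptors lead from Ngfr at 90.8 TPM down to Ntrk3 at 12.5 TPM, and Ntf5 alone lies left of the line.

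Ntf3 (ENSMUSG00000049107.13, chr6:126101412-126166910, minus strand) was the highest of the 3 ligand genes. It stood at 10.1 TPM in replicate 1 and 9.93 TPM in replicate 2, with a mean of 10.01 ± 0.113 TPM (SD, n = 2). The libraries hardly differed for it, and 57.4% of protein-coding genes had a lower mean.

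Bdnf (ENSMUSG00000048482.14, chr2:109674700-109727007, plus strand) was expressed at a low level. It stood at 2.12 TPM in replicate 1 and 1.46 TPM in replicate 2, from 173 and 123 counts, a mean of 1.79 ± 0.467 TPM. Replicate 1 was the higher library. Within each library Ntf3 exceeded Bdnf, by 2.51 ± 0.36 on the log2 scale, or 5.69-fold.

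Ntf5, which encodes neurotrophin-4, lies at chr7:45413695-45417179 on the plus strand (ENSMUSG00000074121.3). Its levels of 0.51 TPM in replicate 1 and 0.45 TPM in replicate 2 rested on 20 and 17 counts. Both libraries were below 1 TPM, so Ntf5 was the 1 gene of the 7 not counted as expressed.

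The ligand transcripts differed mainly in where they began. Ntf3-203, whose first base is 126164960, took 66.1% of Ntf3 TPM in replicate 1 and 82.2% in replicate 2. The upstream forms Ntf3-201 and Ntf3-202, with first bases 126166910 and 126166715, together took 33.9% and 17.8%. Replicate 2 had the larger downstream share, and no test was run on this split. M4, the older annotation used below as an alternative, does not list Ntf3-203. The 250 bases before the downstream start, at chr6:126164961-126165210 on the minus strand, are shown from RefSeq (GRCm38.p6), with CG dinucleotides in capitals.
Ntf3-203 promoter: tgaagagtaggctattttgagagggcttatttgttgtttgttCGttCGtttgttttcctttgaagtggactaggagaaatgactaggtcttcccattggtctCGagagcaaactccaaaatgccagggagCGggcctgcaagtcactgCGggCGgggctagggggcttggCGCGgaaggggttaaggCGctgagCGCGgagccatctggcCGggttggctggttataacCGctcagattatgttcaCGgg

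This window held 14 CG dinucleotides, a letter pair that reads the same on both strands. The median over 32851 RefSeq promoter windows of this length was 6, 92.1% of them held at least 1, and 70.6% held fewer than 14. The GC content was 54%, against a median of 52.4%.

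Of 11 Bdnf transcripts, 6 were at 0 in both libraries. All 11 share the last coding base and the end, and they begin at 9 different bases. Bdnf-205, which begins at base 109693563, took 75.0% of Bdnf TPM in replicate 1 and 94.7% in replicate 2. Bdnf-209 took 13.9% in replicate 1 and was at 0 in replicate 2. These shares rest on the 173 and 123 counts of the whole gene. The deposited posterior SD of the Bdnf-205 count was 12.1 on 129 counts in replicate 1 and 13.4 on 116 counts in replicate 2. Ntf5-201 took 100% and 87.3% of Ntf5 TPM.

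**Figure D2:**
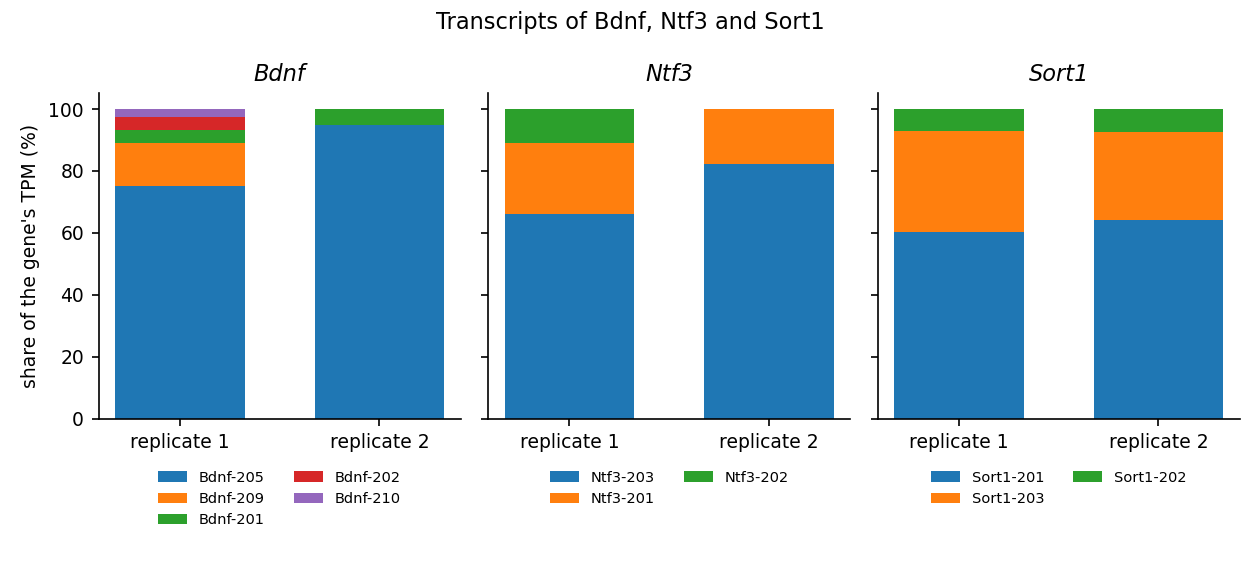
Stacked shares of each gene's TPM, in percent, by transcript for Bdnf, Ntf3 and Sort1 in each library. Bdnf-205, Ntf3-203 and Sort1-201 form the largest block in both libraries, and the smaller Bdnf blocks come from few reads.

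Ntrk2 (ENSMUSG00000055254.15, chr13:58806569-59133970, plus strand) was the higher of the 2 Trk receptor genes followed here. It stood at 58.5 TPM in replicate 1 and 60.02 TPM in replicate 2, from 4318 and 4678 counts, a mean of 59.3 ± 1.06 TPM. The libraries were close, and 86.3% of protein-coding genes had a lower mean. This level depended on the annotation. In the authors' tables against the older release GENCODE M4, Ntrk2 had nearly as many counts, 4143 and 4519, but 28.2 and 29.6 TPM. M4 lists neither Ntrk2-204, Ntrk2-205 nor Ntrk2-207, and its Ntrk2 forms are the longer Ntrk2-201 (8744 bases) and Ntrk2-202 (6846 bases). With M4 the Ntrk2 libraries overlapped those of Sort1, at 29.5 and 32.4 TPM, so the order of these 2 genes holds for M21 only.

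Most Ntrk2 RNA was of truncated form. Full-length transcripts made 21.3% of Ntrk2 TPM in replicate 1 and 22.1% in replicate 2, or 12.4 and 13.3 TPM. Truncated transcripts made 76.6% and 76.7%, or 44.8 and 46.1 TPM. Truncated exceeded full-length Ntrk2 by 1.82 ± 0.04 on the log2 scale, 3.54-fold, in both libraries. With M4 the excess was 1.09, and by shares of counts in place of TPM the full-length part was 30.7%, so truncated forms led under each of the 3 readings.

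Among single Ntrk2 transcripts, Ntrk2-204 led with 40.04% of Ntrk2 TPM in replicate 1 and 41.6% in replicate 2. Ntrk2-205 followed with 26.2% and 24.04%. The full-length Ntrk2-207 took 19.1% and 19.5%, and Ntrk2-202 took 8.77% and 9.54%. The order was the same in both libraries. The shared ending of Ntrk2-204 and Ntrk2-202, printed above, accounted for 28.6 TPM in replicate 1 and 30.7 TPM in replicate 2, above the full-length sum in each library.

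Ntrk3 (ENSMUSG00000059146.12, chr7:78175959-78738012, minus strand) stood at 11.1 TPM in replicate 1 and 13.9 TPM in replicate 2, with a mean of 12.5 ± 2.01 TPM from 970 and 1140 counts. Replicate 2 was the higher library, and 60.6% of protein-coding genes had a lower mean. The M4 tables gave Ntrk3 fewer counts, 551 and 676, at similar levels of 10.9 and 12.7 TPM. The gap between libraries was wider in TPM than in counts. As a log2 ratio, replicate 2 stood above replicate 1 by 0.33 in TPM and by 0.14 in scaled counts, while the deposited effective length of the gene was 4179 bases in replicate 1 and 3780 bases in replicate 2. One short decay-class transcript, Ntrk3-216 (224 bases, picked after its values were seen), was at 0 in replicate 1 and took 8.79% of Ntrk3 TPM in replicate 2 from 3.31 counts.

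Ntrk3 had the opposite split from Ntrk2. Its full-length transcripts made 60.5% of Ntrk3 TPM in replicate 1 and 57.0% in replicate 2, or 6.70 and 7.93 TPM. The truncated Ntrk3-202 made 28.3% and 25.6%, or 3.14 and 3.57 TPM. Truncated was below full-length Ntrk3 in both libraries, with a log2 ratio of -1.12 ± 0.04. With M4 the ratio was -2.36, in the same direction. Incomplete models took 4.17% and 5.98%, and non-coding ones 7.03% and 11.4%.

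**Figure D3:**
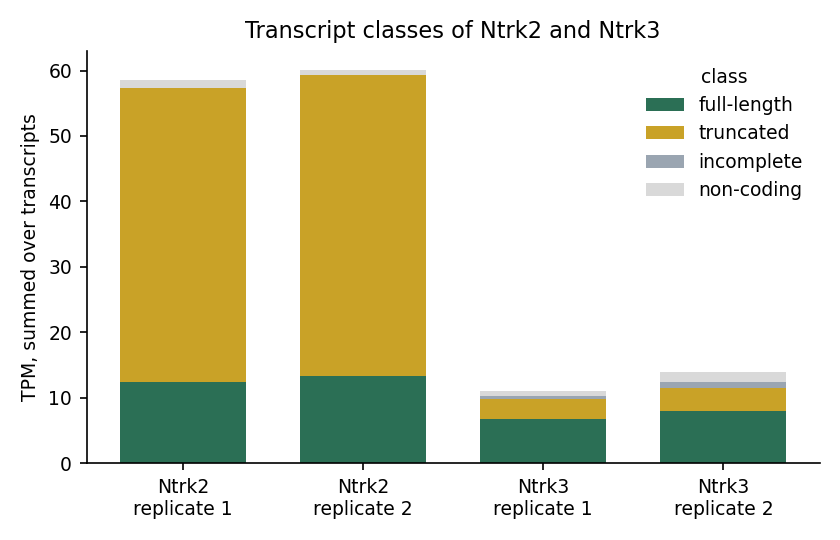
TPM summed over transcript classes of Ntrk2 and Ntrk3 in each library, from a baseline of 0. Truncated forms fill most of each Ntrk2 bar (44.8 and 46.1 TPM), while full-length forms are the largest class in each Ntrk3 bar (6.70 and 7.93 TPM).

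Set side by side, the 2 Trk genes lay closer in their kinase-bearing forms than in their totals. Ntrk2 exceeded Ntrk3 by 2.25 ± 0.21 on the log2 scale over all transcripts, 4.77-fold. Between full-length forms the difference was 0.82 ± 0.11, 1.76-fold, and between truncated forms 3.76 ± 0.10, 13.6-fold. All 3 had the same direction in both libraries. The full-length difference was 0.044 with M4, so a higher full-length level of Ntrk2 rests on the M21 models. The truncated difference was 3.50 with M4.

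Within full-length Ntrk3, the kinase insert forms printed above, Ntrk3-205 and Ntrk3-206, together took 52.0% of Ntrk3 TPM in replicate 1 and 49.6% in replicate 2. Ntrk3-201, without the insert, took 8.49% and 7.36%. With M4 the insert forms led by less. There Ntrk3-201 took 24.2% and 31.6%, Ntrk3-205 28.7% and 45.0%, and Ntrk3-206 22.8% and 0. In M21 counts the order turned: Ntrk3-201, 19703 bases long, held 386 and 435 counts, and the insert forms 315 and 386 counts. The split between these 2 insert forms was uncertain, above all the presence of Ntrk3-206. Ntrk3-206 went from 18.9% in replicate 1 to 0 in replicate 2, but the deposited posterior SD of its count was 73.9 and 46.6. Ntrk3-205 took 33.1% and 49.6%, with posterior SDs of 74.7 on 198 counts and 48.1 on 386 counts.

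Ngfr (ENSMUSG00000000120.6, chr11:95568818-95587735, minus strand), the pan-neurotrophin receptor gene, had the highest level of the set. It stood at 82.8 TPM in replicate 1 and 98.7 TPM in replicate 2, from 5803 and 7161 counts, a mean of 90.8 ± 11.3 TPM. Replicate 2 was the higher library, and 91.5% of protein-coding genes had a lower mean. Ngfr has 1 annotated transcript, so its level does not hang on a split between forms. It exceeded Ntrk2 by 0.61 ± 0.15 on the log2 scale and Sort1 by 1.90 ± 0.05. With M4 the difference from Ntrk2 was 1.72.

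Sort1 (ENSMUSG00000068747.14, chr3:108284082-108361511, plus strand) stood at 22.7 TPM in replicate 1 and 25.8 TPM in replicate 2, with a mean of 24.3 ± 2.18 TPM. Replicate 2 was again higher, and 71.4% of protein-coding genes had a lower mean. Sort1-201 took 60.3% of Sort1 TPM in replicate 1 and 64.1% in replicate 2. Sort1-203, which carries an extra in-frame exon, took 32.6% and 28.5%. The retained-intron form Sort1-202 took 7.05% and 7.42%, and the 3 forms kept this order in both libraries. The extra exon is printed in capitals, between 30 bases on each side that Sort1-201 joins directly.
Sort1-203: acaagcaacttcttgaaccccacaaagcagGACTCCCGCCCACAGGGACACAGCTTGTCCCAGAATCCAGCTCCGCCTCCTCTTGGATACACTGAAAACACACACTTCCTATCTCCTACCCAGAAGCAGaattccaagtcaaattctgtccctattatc

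The exon spans 99 bases at chr3:108355472-108355570 and adds 33 codons, giving a frame of 858 codons against 825 in Sort1-201. The insert-bearing form stood at 7.41 TPM in replicate 1 and 7.36 TPM in replicate 2. The form without it stood at 13.7 and 16.5 TPM, and the retained-intron form at 1.60 and 1.91 TPM. The latter 2 were higher in replicate 2 and the insert-bearing form was not, though no test was run on the forms. The deposited posterior SD of the Sort1-201 count was 125 on 2397 counts in replicate 2, and that of Sort1-203 was 118 on 1074 counts.

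The libraries were then compared with each other on counts, replicate 2 over replicate 1, which describes these 2 pools and no condition. A two-sided exact binomial test against TMM-scaled library sizes, adjusted by Benjamini-Hochberg over all 20125 genes with 10 counts or more in either library, covers counting error only. It called 3 of the 7 genes, with 20.3% of all genes tested called, a share not matched for read counts. In replicate 2, 2 were higher, against 10.5% of all genes, and 1 was lower, against 9.78%. The median log2 ratio was 0.03 over the 7 genes, 4 of them positive, and near 0 over all genes tested.

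Ngfr was higher in replicate 2 by a log2 ratio of 0.21 (95% counting interval 0.16 to 0.26, adjusted p = 3.68e-15, exact binomial test with Benjamini-Hochberg adjustment). Sort1 was higher by 0.14 (0.07 to 0.21, adjusted p = 0.000724, same exact test). Bdnf was lower in replicate 2, with a log2 ratio of -0.57 (-0.93 to -0.24, adjusted p = 0.00536, same exact test). The other 4 did not pass: Ntrk3 had 0.14 (0.02 to 0.27, adjusted p = 0.0936, exact test), and Ntrk2 had 0.03 (-0.03 to 0.09). For Ntf3 the log2 ratio was -0.08 (-0.33 to 0.17), and for Ntf5 -0.29 (-1.35 to 0.68), an interval set by its few reads.

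With a spread between libraries allowed for, these calls ended. The edgeR exact test at the common dispersion, a biological coefficient of variation of 7.36%, called 0 of the 7 genes by Benjamini-Hochberg adjusted p and 1.13% of all genes. At an unadjusted p under 0.05 it held 1 of them, Bdnf (p = 0.0118, adjusted p = 0.335 by the edgeR exact test). The share of all genes under this unadjusted threshold was not taken, so such counts, here and below, have no background. Scaled to the ERCC spike-ins, 5 of the 7 were called, with 25.2% of all genes called. In replicate 2, 4 were higher, against 19.3% of all genes, and 1 was lower, against 5.82%, Ntrk2 and Ntrk3 being added among the higher ones. That scaling shifted all genes upward in replicate 2, with 76.9% of the calls over all genes higher against 51.8% with TMM.

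Genes listed as markers of cells beside the neural tube moved in these libraries too. Whether cells of the neural tube itself also expressed them was not tested, so their summed levels do not measure the share of such cells. Of 9 sensory ganglion markers, led by Prph and Pou4f1, 8 were higher in replicate 2 and none was lower, with a summed level of 278 TPM in replicate 1 and 391 TPM in replicate 2 and none at 0. Of 7 Schwann cell and crest markers, led by Ednrb, 4 were higher and none lower, with sums of 202 and 242 TPM. Of 4 endothelial markers, 2 were higher and none lower. Ngfr and Sort1 moved in the same direction as these 3 lists. The pericyte list had a positive median too (0.08), with none of its 3 genes called. Of 7 skeletal muscle markers, led by Actc1 and Acta1, none was higher and 6 were lower, with sums of 257 and 186 TPM. Of 7 motor neuron markers 5 were lower, and 2 were higher, Isl1 and Isl2, which sensory neurons also express. The spinal neuron list had 3 of 6 lower and 1 higher, and the neural progenitor list 2 of 6 lower and none higher. Of 5 sympathetic markers 1 was lower and 1 higher, with a median log2 ratio of -0.47. Only 2 of the 5 were expressed, and the higher one was Th, the top of that list, at 0.34. The medians of these 5 lists, and of the mesenchyme and epidermis lists, were negative, the direction of Bdnf. With ERCC scaling, where 19.3% of all genes were higher and 5.82% lower, the spinal neuron list turned to 3 higher and 1 lower. The edgeR exact test at the common dispersion called 1.13% of all genes. It kept 4 of the 9 sensory ganglion, 2 of the 7 skeletal muscle and 1 of the 7 motor neuron markers as calls. Of the 7 Schwann cell and crest markers it kept 0, with 2 at an unadjusted p under 0.05. The part of these cells in the Ngfr, Sort1 and Bdnf differences was not tested.

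**Figure D4:**
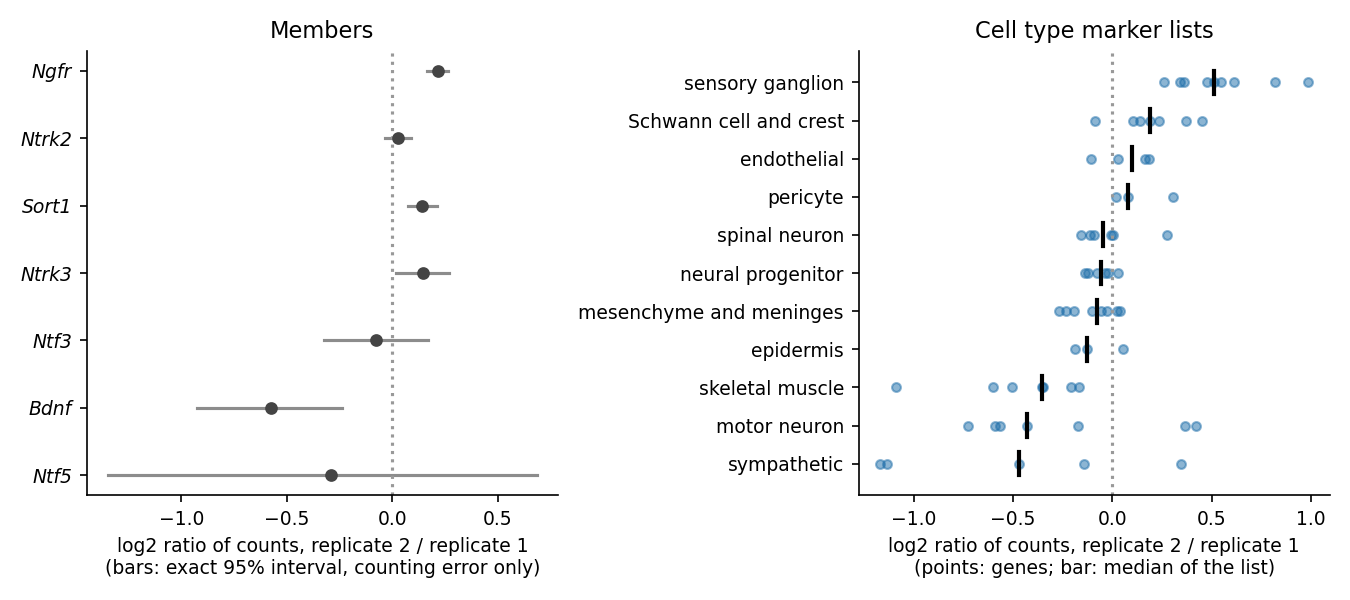
Left, log2 ratio of counts, replicate 2 over replicate 1, for the 7 genes with exact 95% intervals for counting error; right, the same ratio for each gene of 11 cell type marker lists, with the median as a bar. Ngfr and Sort1 lie right of 0 with the sensory ganglion list (median 0.51), and Bdnf lies left of it at -0.57. Medians of several lists lie on that side, among them motor neuron (-0.43) and skeletal muscle (-0.36). So does the sympathetic median (-0.47), with only 2 of 5 genes expressed.

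Genes that make, sort or relay neurotrophin signals were mostly expressed. In 6 lists of 50 genes, 46 were expressed (92%), with a median level of 19.5 TPM among those, against 21.7 TPM over all expressed protein-coding genes. Between the libraries 12 of the 49 tested were higher and 4 lower in replicate 2, or 32.7% against 20.3% of all genes, with a median log2 ratio of 0.05. These shares were not matched for read counts, and the exact binomial test calls smaller differences at higher counts. The edgeR exact test at the common dispersion called 0 of the 49 (2 at an unadjusted p under 0.05), against 1.13% of all genes. ERCC scaling gave 20 higher and 4 lower, with 19.3% of all genes higher and 5.82% lower.

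Of 7 genes for cleaving neurotrophin precursors, 6 were expressed and none was called. Plat, the tissue plasminogen activator, led at 44.8 ± 0.820 TPM, before the convertase gene Pcsk7 at 21.9 ± 0.304 TPM. Plg, which encodes plasminogen, was lowest at 0.155 ± 0.0919 TPM. All 4 Vps10-domain relatives of Sort1 were expressed, from Sorl1 at 12.9 ± 0.0354 TPM and Sorcs2 at 9.11 ± 0.559 TPM down to Sorcs1 at 7.76 ± 0.389 TPM. Each of them lay below Sort1. In scaled counts Sorl1 and Sorcs3 were lower in replicate 2, with log2 ratios of -0.22 and -0.23, while Sort1 was higher. In TPM Sorl1 hardly differed, at 12.97 in replicate 1 and 12.92 in replicate 2, and Sorcs3 stood at 8.69 and 7.37.

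All 10 genes for partners and adaptors of the Ngfr protein were expressed. Maged1, an adaptor that binds its intracellular part, stood at 759 ± 20.6 TPM and Bex3, another such binder, at 514 ± 10.3 TPM. Both were well above Ngfr itself. The lowest was Ripk2, a kinase recruited to death-domain receptors, at 4.15 ± 0.177 TPM. In replicate 2, 3 were higher, Lingo1, Prdm4 and Traf6, and none was lower. All 5 genes for proteases that cut the Ngfr protein were expressed, with the gamma-secretase genes Ncstn highest at 106 ± 3.42 TPM and Psen2 lowest at 6.89 ± 0.912 TPM. Aph1a was lower in replicate 2.

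All 15 genes for adaptors and effectors of Trk receptors were expressed. The adaptor genes Grb2, at 141 ± 7.92 TPM, and Crk, at 104 ± 5.88 TPM, led, and Shc3, an Shc adaptor of neurons, was lowest at 3.91 ± 0.537 TPM. In replicate 2, 7 were higher and 1, the phosphatase gene Ptpn11, was lower. Of 9 genes known to respond to such signalling, 6 were expressed. Dusp6, which encodes a phosphatase of the ERK kinases, led at 31.1 ± 0.841 TPM, followed by the transcription factor gene Etv5 at 16.0 ± 3.03 TPM, and Egr3 was lowest at 0.075 ± 0.0212 TPM. Etv5 was the 1 gene of that list called, higher in replicate 2 by 0.35. These genes are known to answer to other growth factors too.

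**Figure D5:**
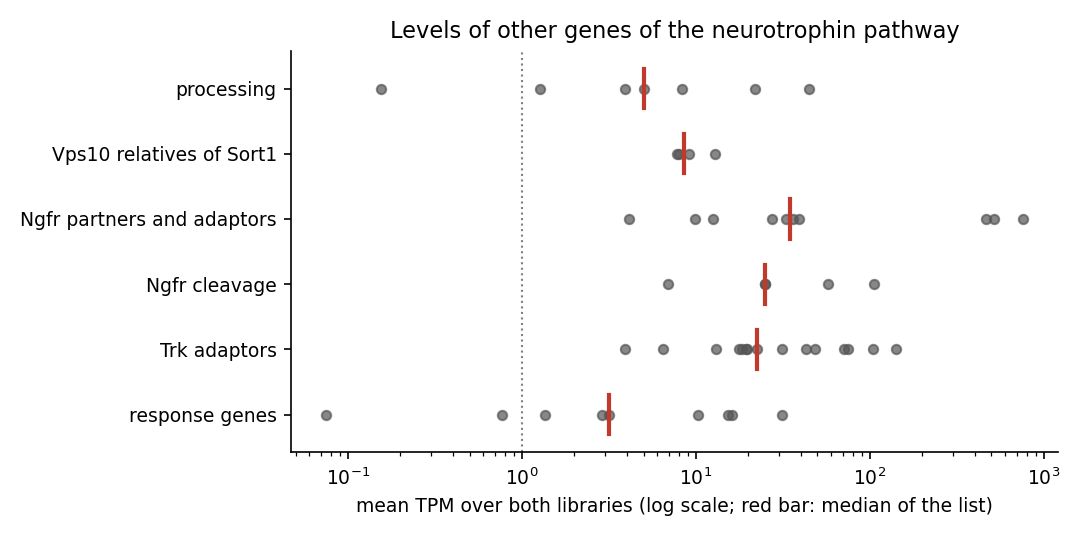
Mean TPM over both libraries, on a log axis, for each gene of 6 pathway lists, with the list median as a red bar and a dotted line at 1 TPM. All genes of 4 lists lie right of the line, and the points left of it are Plg at 0.155 TPM in the processing list and, among the response genes, Arc at 0.765 TPM and Egr3 at 0.075 TPM.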

How the data were processed

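Polyadenylated RNA of 2 neural tube pools was measured. Per the notes deposited with each library, the authors aligned reads to transcripts on mm10 and quantified them against GENCODE M21 and, separately, M4. The names of aligner and quantifier were not given in the sources used here. The deposited values are estimated counts, with shared reads divided among features, TPM, and the percent of its gene's TPM taken by each transcript. Per the file headers, the posterior standard deviation of each count (a score on the count scale) and TPM credibility bounds (a signal column, not used) are also deposited. No strand-specific step is named in the labels, so antisense reads cannot be told apart.

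All 55536 M21 gene rows were named from GENCODE M21. Means ± SD are over 2 libraries. Counts were rounded, scaled by TMM in edgeR 4.0.16 (R 4.3.3) and kept at 10 or more in either library. They were compared by an exact binomial test with Benjamini-Hochberg adjustment at 0.05. The test was run on simulated counts with counting error only, the error it assumes, so that check does not cover spread between libraries. Log2 ratios used a prior count of 2. The labels number the pools as biological replicates, and p-values measure only the difference between these libraries; without molecular identifiers, PCR copies count as reads and intervals cover counting error only. The edgeR common dispersion was estimated with both libraries as 1 group, so it includes the differences it is tested against. Transcripts were called full-length or truncated by their annotated stop codon. Alternatives were DESeq2 1.42.0 size factors, ERCC scaling, the edgeR exact test, no count filter, the M4 tables, posterior mean TPM, shares of counts, TPM + 1 and leaving out each library. Scripts ran under Python 3.11.15 with scipy 1.17.1 and pandas 2.3.3.

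Members and lists were chosen with earlier results of these data known. Named are the 7 members, their transcripts with a mean share of at least 5%, the 2 highest and the lowest genes of each pathway list, and the 2 highest of marker lists; other genes were named after their values were seen to spell out counts of 5 or fewer. Rarer transcripts in the plot of transcript shares are drawn to complete its bars. A list of 2 further genes and the single values of some listed genes are not reported here.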

Additional observations from a re-analysis of the deposited data

How the results depend on the processing

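No listed level, ratio or call of the 7 genes reversed its direction under the alternatives run. The order of Ntrk2 and Sort1 turned with M4, and that of Ntrk3-201 and the insert forms turned in counts. With ERCC scaling the spinal neuron calls turned from 1 higher and 3 lower to 3 higher and 1 lower. Those of the mesenchyme list turned from 0 higher and 1 lower to 2 higher and 1 lower. With 2 libraries, leaving out 1 returns the other library's value, which cannot lie beyond the SD, so it is no check of stability. The M4 tables moved mean TPM of Ntrk2 to 28.9 and of Sort1 to 30.95, and the log2 ratios of Ngfr over Ntrk2 to 1.72, Ntrk2 over Ntrk3 to 1.30, Ntrk2 over Bdnf to 3.96 and Ngfr over Sort1 to 1.62. With M4 transcripts, full-length Ntrk2 over Ntrk3 came to 0.044, truncated Ntrk2 over Ntrk3 to 3.50, truncated over full-length Ntrk2 to 1.09 and truncated over full-length Ntrk3 to -2.36. M4 shares were 31.99% full-length and 68.01% truncated for Ntrk2, and 76.1% and 14.8% for Ntrk3. By counts, the shares were 30.7% full-length and 67.7% truncated for Ntrk2 and 72.2% full-length for Ntrk3. Posterior mean TPM was 9.77 for Ntf3, 0.545 for Ntf5, 58.1 for Ntrk2 and 15.2 for Ntrk3. The edgeR exact test called 0 of the 7 members (1 at an unadjusted p under 0.05), with log2 ratios of -0.58 for Bdnf (adjusted p = 0.335), 0.21 for Ngfr (adjusted p = 0.974) and 0.14 for Sort1 (adjusted p = 1). ERCC scaling called 5, adding Ntrk2 at 0.082 (adjusted p = 0.0312, exact binomial test) and Ntrk3 at 0.20 (adjusted p = 0.00931, exact binomial test). Ntrk3 was 0.30 as a ratio of TPM + 1. The causes of these shifts between settings were not tested. DESeq2 size factors and no count filter each called 3 of 7, with 20.2% and 11.9% of all genes called. No paired analysis was possible because there is 1 group. Depth limits Ntf5 (20 and 17 counts), the Bdnf transcript shares and single Ntrk3 forms such as Ntrk3-206 and Ntrk3-216.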

Other observations

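Genes that overlap the members on either strand had few reads. The highest was Gm9885, antisense to Ntrk3, with 92 counts in replicate 1 and 121 in replicate 2, or 2.08 and 2.65 TPM. Gm43099, on the Sort1 strand, had 32 and 61 counts, and Gm45346, antisense to Bdnf, had 0 in both. These genes were picked after their values were seen, and reads shared with the members cannot be told apart without strand.

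In RefSeq promoter windows of 250 bases listed for the members, CG dinucleotides numbered 19 for Ntrk2, at the start of Ntrk2-207, and 16 for Ngfr, and they ranged from 1 to 13 over 7 Bdnf windows. The Ngfr window, 1 of the Bdnf windows and the upstream Ntf3 window (11 CG dinucleotides) did not match the first base of an M21 transcript within 5 bases. The window of Bdnf-209 held 9. A count in these windows says nothing about binding or use.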
